A study of Mus musculus with 28 samples.

Results

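The genes described are the translation initiation factors, taken as every gene symbol in the deposited count table that starts with Eif1 to Eif6, without Eif2s3x, Eif2s3y and symbols marked as pseudogenes. This gave 53 of 24391 genes. The libraries came from motor cortex of Cx3CR1-Cre/TRAPfl mice, in which Cre made under the promoter of Cx3cr1, a gene of microglia and other macrophages, switches on a tagged ribosome so that the mRNA bound to it can be pulled down (translating ribosome affinity purification, TRAP). Run mice spent 1 h on a rotarod before tissue was taken, and home cage mice served as the baseline. Each of 7 run and 7 home cage mice gave a TRAP library and a total lysate library of the same tissue, which makes 28 poly(A) RNA libraries in 4 groups of 7, namely run TRAP, home cage TRAP, run lysate and home cage lysate. All mice carried the same genotype, and the labels give no age. By the labels each condition held 4 females and 3 males, and sex was not a term in any fit. The labels divide the mice into cohort 2, with 3 mice per condition, and cohort 1, with 4 mice per condition, and name the cohort as the batch.

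Initiation factors place the small ribosomal subunit on the start codon of an mRNA. eIF2 brings the initiator tRNA, eIF3 holds the small subunit together with the other factors, and eIF4F binds the cap and unwinds the leader. Cells set the rate of the process mainly at eIF2, which 4 kinases can phosphorylate under stress, and at the cap-binding protein eIF4E, which is held by the 4E-binding proteins until mTORC1 phosphorylates them. Microglia are the resident macrophages of the brain, and neurons use local control of initiation at synapses, so the same factors work in the cells on both sides of the comparison between TRAP and lysate.

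Total counts ranged from 70090518 to 241381845 per library. The 13 microglial marker genes were all higher in TRAP, and their summed level ran from 31260 to 89690 CPM (counts scaled to the size of the library) in TRAP libraries, against 548 to 727 CPM in lysate libraries. Neuronal markers were still present in TRAP at 2853 to 9705 CPM over 11 genes, against 10430 to 18350 CPM in lysate, and 10 of the 11 were lower in TRAP. The labels give the cell type of the lysate libraries as microglia too, but the marker levels are those of whole cortex. Markers of border-associated macrophages were higher in TRAP for 5 of 5 genes (398 to 1391 CPM in TRAP, against 6.71 to 20.5 CPM in lysate), endothelial markers for 5 of 5 (146 to 677 CPM, against 30.6 to 91.2 CPM) and mural markers for 3 of 5, while 5 of 6 astrocyte and 6 of 7 oligodendrocyte markers were lower. The part of these cells in the factors' levels was not tested. Levels of 4 Y-linked genes went against the sex label in both libraries of 2 run mice, Male1 and Female2 of cohort 2. Calls and counts that change without those mice are therefore also given. In bulk tissue, fewer cells of a type and less RNA per cell cannot be told apart.

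All 53 genes but 3 had enough counts to be tested, which is 50 in every comparison. Eif4e1b, the germline form of eIF4E, and Eif3j2 had no count in any library, and Eif3j1 had at most 2 counts. Of the 50-base stretches of Eif3j1, 50.9% occur in other genes, and of those of Eif3j2, 91.8%. Each of the 2 is the other's partner with the most matches. Exons of Eif3j1 also overlap those of Spg11 on the other strand over 1107 bases. The part of these overlaps in the low counts was not tested. Per kilobase of exon, Eif1, which keeps the scanning ribosome from starting at the wrong codon, had the highest level in both fractions, at 588 ± 119 CPM per kb in TRAP and 446 ± 91.1 CPM per kb in lysate (SD, n = 14 each). Eif1 was first in each cohort alone too, but the places below it differed between cohorts. In cohort 2 Eif5a was second in both fractions, at 308 CPM per kb in TRAP and 205 CPM per kb in lysate. In cohort 1 Eif1b was second in TRAP at 215 CPM per kb, with Eif4g2 at 214 and Eif5a at 178 (rank 5), and Eif4a2 was second in lysate at 246 CPM per kb, with Eif5a at 166 (rank 4). Eif4a2 had rank 7 in lysate of cohort 2 at 86.3 CPM per kb, and in TRAP it was at 23.4 CPM per kb in cohort 2 and 61.3 CPM per kb in cohort 1. The lowest of the tested genes was Eif4ebp2 in both fractions of each cohort, at 0.661 ± 0.268 CPM per kb in TRAP and 0.296 ± 0.0889 CPM per kb in lysate (SD, n = 14 each).

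The comparison of TRAP with lysate asks which initiation factor mRNAs were on tagged ribosomes above their share in the whole tissue. At an adjusted p under 0.05 in edgeR's quasi-likelihood test, 30 of the 50 factors were higher in TRAP, where 34.0% of all 16716 genes tested were higher, and 11 were lower, where 40.1% of all genes were lower. Their median log2 TRAP over lysate was 0.44, against -0.20 over all genes tested, and 40 of the 50 lay above that general median. Log2 ratios ran from 2.698 for Eif4ebp1 to -1.95 for Eif4a2. All 14 TRAP libraries lay above all 14 lysate libraries for 8 factors, where 11.9% of all genes did so, and below them for 1 factor, where 4.4% of all genes did so. The eIF3 subunits and the 4E-binding proteins were mostly higher, eIF2B mostly lower, and the paralogs of eIF4A, eIF4E, eIF5A and of the eIF2 kinases differed in sign.

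The split depends on the scaling. With library totals in place of TMM scaling, 17 factors were higher and 22 lower, because the median of all genes then moved by -0.51 to -0.71. Of all 16716 genes, 3903 were higher and 9488 lower under that scaling. The factors' median was 0.64 above the median of all genes under TMM and 0.63 above it under library totals. Of the 30 factors higher under TMM, 17 were also higher under library totals, and the 11 that were lower under TMM were lower under both. Of the 50 factors, 12 changed sign to lower, and 7 of these were then called lower: Eif2d, Eif4e2 and Eif5a, which were called higher under TMM, and Eif1b, Eif4g1, Eif4g3 and Eif4h, which were not called under TMM. Higher calls of Eif1, Eif2ak3, Eif2b4, Eif2s2, Eif3c, Eif3e, Eif3l, Eif3m, Eif4a1 and Eif6 were lost under library totals. Directions near 0 and these calls below are thus relative to TMM scaling. Without the 2 run mice whose sex markers went against their labels, 31 factors were higher and 11 lower. Of the 16904 genes tested without them, 5534 were higher and 6504 lower. Eif4enif1 and Eif4g3 were then called higher (adjusted p = 0.0369 and 0.0419), Eif2b2 and Eif3i were called lower (adjusted p = 0.0403 and 0.00559), and Eif1ax, Eif2ak4 and Eif2d were no longer called (adjusted p = 0.0677, 0.0535 and 0.164).

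**Figure D1:**
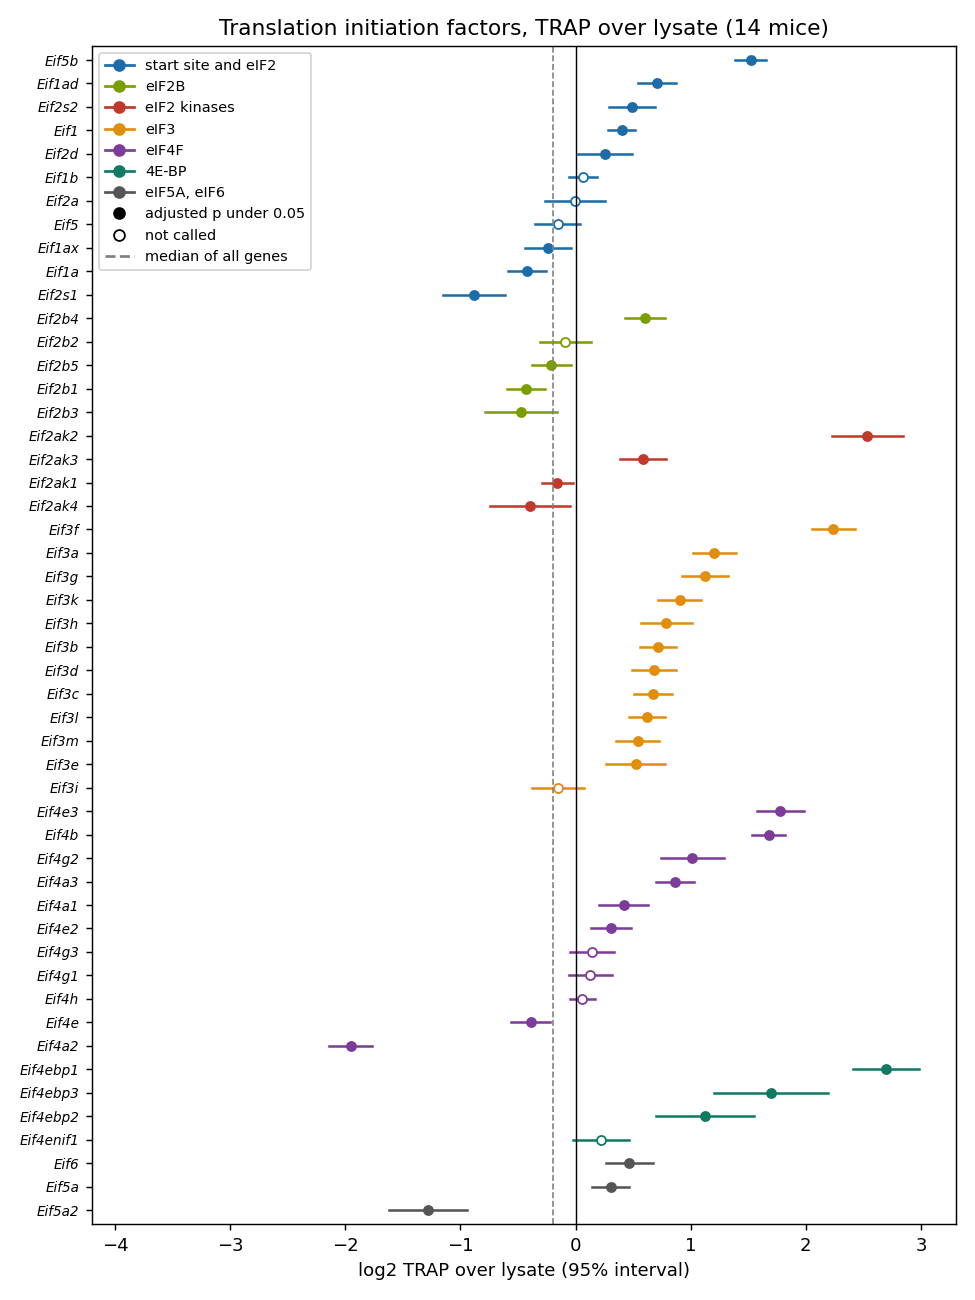
Log2 TRAP over lysate of the 50 tested initiation factors by role (horizontal axis, points with 95% intervals, 14 mice), with filled points for adjusted p under 0.05 and a dashed line at the median of all genes. Eif4ebp1, Eif2ak2 and Eif3f stand farthest to the right and Eif4a2 and Eif5a2 farthest to the left.

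Among the factors that carry the initiator tRNA and choose the start codon, 5 of 11 were higher in TRAP, 3 were lower and 3 were not called. Eif5b, the GTPase that joins the large subunit, had the highest ratio of the group. Its level was 79.6, 156 and 188 CPM (lowest, median and highest) in TRAP, against 30.1, 51.6 and 62.6 CPM in lysate, and the 2 sets of libraries did not overlap. That is a log2 ratio of 1.52 ± 0.07 (SE), adjusted p = 4.7e-19, higher in 14 of 14 mice. Exons of Eif5b overlap those of Rev1 on the other strand over 1240 bases, and the strand setting of the counting is not given in the sources used here. Eif2s1, the eIF2 alpha subunit that the eIF2 kinases phosphorylate, was the lowest of the group at 28.9, 53.7 and 80.2 CPM in TRAP, against 34.9, 141 and 194 CPM in lysate. Its log2 ratio was -0.88 ± 0.13, adjusted p = 5.1e-07, and 13 of 14 mice were lower in TRAP, although the 2 sets of libraries overlap. Within cohort 2 alone Eif2s1 had a log2 ratio of -0.29, adjusted p = 0.101, against -1.32, adjusted p = 1.69e-09, in cohort 1 alone. Eif2s2, the beta subunit, went the other way with a log2 ratio of 0.49 ± 0.10, adjusted p = 4.03e-05. Eif1 was higher at 0.40 ± 0.06, adjusted p = 2.05e-07, while its paralog Eif1b was at 0.07 ± 0.06, adjusted p = 0.324. Eif1a and Eif1ax, both copies of the scanning factor eIF1A, were lower at -0.42 ± 0.08 and -0.24 ± 0.10.

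eIF2B recharges eIF2 with GTP and is what phosphorylated eIF2 blocks. Of its 5 subunits, Eif2b4 alone was higher in TRAP, Eif2b1, Eif2b3 and Eif2b5 were lower, and Eif2b2 was not called. Eif2b4 had 31.7, 40.0 and 138 CPM in TRAP, against 22.9, 31.0 and 62.6 CPM in lysate. Although the 2 sets of libraries overlap, the ratio was above 0 in 14 of 14 mice, with a log2 ratio of 0.60 ± 0.09, adjusted p = 2.54e-07. Under library totals Eif2b4 was at 0.08 and not called. Eif2b3 was at 7.45, 14.1 and 24.8 CPM in TRAP, against 12.0, 20.6 and 34.7 CPM in lysate, and 13 of 14 mice were lower in TRAP. The log2 ratio of Eif2b3 was -0.47 ± 0.15, adjusted p = 0.00731. In cohort 2 alone its value was -0.05, adjusted p = 0.718. Eif2b5, at -0.21 ± 0.08, adjusted p = 0.0279, was no longer called with the mouse as a block (adjusted p = 0.0659).

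The 4 eIF2 kinases each sense a different stress, and they fell into a higher and a lower pair. Eif2ak2 (PKR), the interferon-induced kinase that senses double-stranded RNA, had 12.0, 16.6 and 21.9 CPM in TRAP, against 1.505, 2.63 and 6.08 CPM in lysate. No TRAP library was as low as any lysate library. This was a 5.80-fold higher level, a log2 ratio of 2.54 ± 0.15, adjusted p = 1.6e-15. Eif2ak3 (PERK), the kinase of endoplasmic reticulum stress, was higher at 0.59 ± 0.10, adjusted p = 3.68e-06, and above 0 in 14 of 14 mice. Under library totals Eif2ak3 was at 0.07 and not called. Eif2ak1 (HRI), which responds to low haem, was the most abundant kinase in both fractions, at 12.8 CPM per kb in TRAP and 14.3 CPM per kb in lysate. Its log2 ratio was -0.16 ± 0.07, adjusted p = 0.0305, and with the mouse as a block it was not called (adjusted p = 0.0505). Eif2ak4 (GCN2), which senses uncharged tRNA, was at -0.39 ± 0.17, adjusted p = 0.0365, with 10 of 14 mice lower in TRAP. That call was lost in 7 of the 14 fits that each left out 1 mouse, with adjusted p up to 0.0973.

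Of the 12 eIF3 subunits tested, 11 were higher in TRAP and none was lower, with log2 ratios from -0.15 to 2.24 and a median of 0.70. Under library totals Eif3c, Eif3e, Eif3l and Eif3m were no longer called, and Eif3i was called lower at -0.67. Eif3f had the highest value of the complex. It was at 227, 355 and 643 CPM in TRAP, against 50.1, 72.5 and 113 CPM in lysate, and the lowest TRAP library was above the highest lysate library. That was 4.72-fold higher in TRAP, a log2 ratio of 2.24 ± 0.09, adjusted p = 7.97e-20. Eif3a, the largest core subunit, followed at 1.21 ± 0.09, then Eif3g at 1.13 ± 0.10 and Eif3k at 0.91 ± 0.09. The exception was Eif3i, at 81.4, 113 and 229 CPM in TRAP, against 111, 142 and 160 CPM in lysate, with a log2 ratio of -0.15 ± 0.11, adjusted p = 0.221. Eif3i split by cohort: it was higher in TRAP in cohort 2 alone (0.31, adjusted p = 0.0235) and lower in cohort 1 alone (-0.50, adjusted p = 1.7e-04). Without the 2 run mice named above it was called lower. Exons of Eif3d overlap those of an antisense gene, Gm17638, over 625 bases, so its log2 ratio of 0.68 ± 0.09 may mix the 2 genes.

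Several mRNAs of the translation machinery begin with a cytosine and a run of pyrimidines, the 5′ terminal oligopyrimidine motif through which mTORC1 controls their translation. The starts below are shown because they span the range from the highest eIF3 ratio to the lowest ratio of all. Each is 30 bases on the gene's strand, from 5 bases before the RefSeq start (build GRCm38.p6), with capitals for a C that begins within 5 bases of the start and is followed by at least 4 C or T bases, and where several begin there, for the longest.
Eif3f: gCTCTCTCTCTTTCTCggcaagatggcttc
Eif3l: cttcttccgCTCTCTCCCacgggcttctgg
Eif4b: tcggacgccgcgccaccccctcgcgctgct
Eif4a2: cccgtaggagcagggcggccgaggagcgcg

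The Eif3f start lies at chr7:108934410-108934439 on the plus strand, that of Eif3l at chr15:79075218-79075247, that of Eif4b at chr15:102073768-102073797 and that of Eif4a2 at chr16:23107463-23107492, all on the plus strand. The run was 15 bases long in Eif3f, the longest of the factors, and 9 in Eif3l. Such a run was present in 11 of the 41 factors that have a promoter entry (26.8%) and in 21.2% of 27025 genes, searched on the gene's strand only. The median log2 TRAP over lysate was 0.22 over the 11 factors with a run and 0.40 over the 29 tested ones without a run, against -0.11 and -0.18 for the same classes over all genes. Eif4b and Eif4a2 had no run in this window.

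In the cap-binding complex eIF4F and its helicase cofactors, 6 of 11 tested factors were higher in TRAP, 2 were lower and 3 were not called. The helicase showed the widest separation between paralogs. Eif4a2 (chr16:23107444-23114136, plus strand) had 61.9, 165 and 225 CPM in TRAP, against 235, 625 and 984 CPM in lysate, and every TRAP library lay below every lysate library. Its log2 ratio was -1.95 ± 0.09, a level of 0.258 times that of lysate, adjusted p = 2e-18, and it was close to that in each cohort alone (-1.88 in cohort 2 and -2.01 in cohort 1). Eif4a1 (chr11:69666936-69672423, minus strand) had 84.95, 113 and 144 CPM in TRAP, against 62.3, 76.9 and 124 CPM in lysate, with a log2 ratio of 0.42 ± 0.11, adjusted p = 7.65e-04. It was higher in 12 of 14 mice, but in cohort 1 alone it was not called (0.10, adjusted p = 0.425). Of its 50-base stretches, 28.4% occur in other genes, with the most matches in the pseudogene Eif4a-ps4. Eif4a3, the helicase of the exon junction complex, was at 0.86 ± 0.08, adjusted p = 8.41e-11, and higher in 14 of 14 mice. Per kilobase, Eif4a2 was above Eif4a1 in lysate, at 86.3 against 38.99 CPM in cohort 2 and at 246 against 53.8 CPM in cohort 1. In TRAP, Eif4a2 was below Eif4a1 in cohort 2, at 23.4 against 69.8 CPM, but not in cohort 1, at 61.3 against 57.6 CPM.

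Eif4e, the main cap-binding protein, was lower in TRAP at 73.1, 246 and 302 CPM, against 98.7, 321 and 404 CPM in lysate. The 2 sets of libraries overlap, and its log2 ratio was -0.39 ± 0.08, adjusted p = 1.01e-04, lower in 12 of 14 mice. Eif4e3, a cap-binding paralog, had 41.0, 52.9 and 76.8 CPM in TRAP, against 12.6, 14.9 and 19.9 CPM in lysate, with no overlap and a log2 ratio of 1.78 ± 0.10, adjusted p = 3.02e-16. Eif4e2, the cap-binding paralog that acts in repression, was at 0.31 ± 0.08, adjusted p = 0.0016. Per kilobase in TRAP, Eif4e was at 18.4 CPM and Eif4e3 at 22.5 CPM in cohort 2, and Eif4e was above Eif4e3 in cohort 1, at 51.8 and 20.7 CPM. In lysate Eif4e was above Eif4e3 in both cohorts, at 23.4 and 5.41 CPM in cohort 2 and at 69.5 and 6.94 CPM in cohort 1. Eif4b, which stimulates the helicase, was 3.20-fold higher in TRAP, at 170, 225 and 280 CPM, against 55.1, 68.9 and 91.3 CPM in lysate. These libraries did not overlap either, and the log2 ratio was 1.68 ± 0.07, adjusted p = 9.78e-20. Eif4h, a related cofactor, was at 0.06 ± 0.05, adjusted p = 0.325.

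Among the scaffolds, Eif4g2 (DAP5), which lacks the eIF4E-binding site, was higher in TRAP at 236, 1485 and 2187 CPM, against 264, 690 and 867 CPM in lysate. Its log2 ratio was 1.02 ± 0.13, adjusted p = 7.26e-08, and 13 of 14 mice were higher, while its TRAP libraries covered the whole range of lysate. Eif4g1 and Eif4g3, the scaffolds that bind eIF4E, were at 0.13 ± 0.09, adjusted p = 0.204, and 0.14 ± 0.09, adjusted p = 0.159. In cohort 1 alone both were higher (0.38, adjusted p = 0.00243, and 0.40, adjusted p = 0.00245), and in cohort 2 alone both were at -0.21 and not called.

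The 4E-binding proteins are the repressors of eIF4E that mTORC1 releases. Eif4ebp1 had 18.0, 32.7 and 97.3 CPM in TRAP, against 2.90, 6.34 and 8.34 CPM in lysate, and no lysate library reached the lowest TRAP library. It was 6.49-fold higher, with a log2 ratio of 2.698 ± 0.14, adjusted p = 5.39e-17. Eif4ebp2, the form described as the main one of neurons, was counted at 1.55, 3.49 and 7.51 CPM in TRAP, against 1.01, 1.68 and 2.67 CPM in lysate. The gene model it was counted with is not given in the sources used here, so this low level may not cover all of its transcripts. The 2 fractions overlap, and 13 of 14 mice were higher in TRAP, with a log2 ratio of 1.12 ± 0.21, adjusted p = 1.88e-05. Eif4ebp3 was at 1.69, 3.87 and 4.58 CPM in TRAP, against 0.407, 1.17 and 1.83 CPM in lysate, with a log2 ratio of 1.70 ± 0.24, adjusted p = 2.65e-07. Its level is uncertain, because 65.5% of its 50-base stretches also occur in AC115631.1, which overlaps it on the same strand over 501 bases. Eif4enif1, the transporter that carries eIF4E into the nucleus, was at 0.22 ± 0.12, adjusted p = 0.0969.

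**Figure D2:**
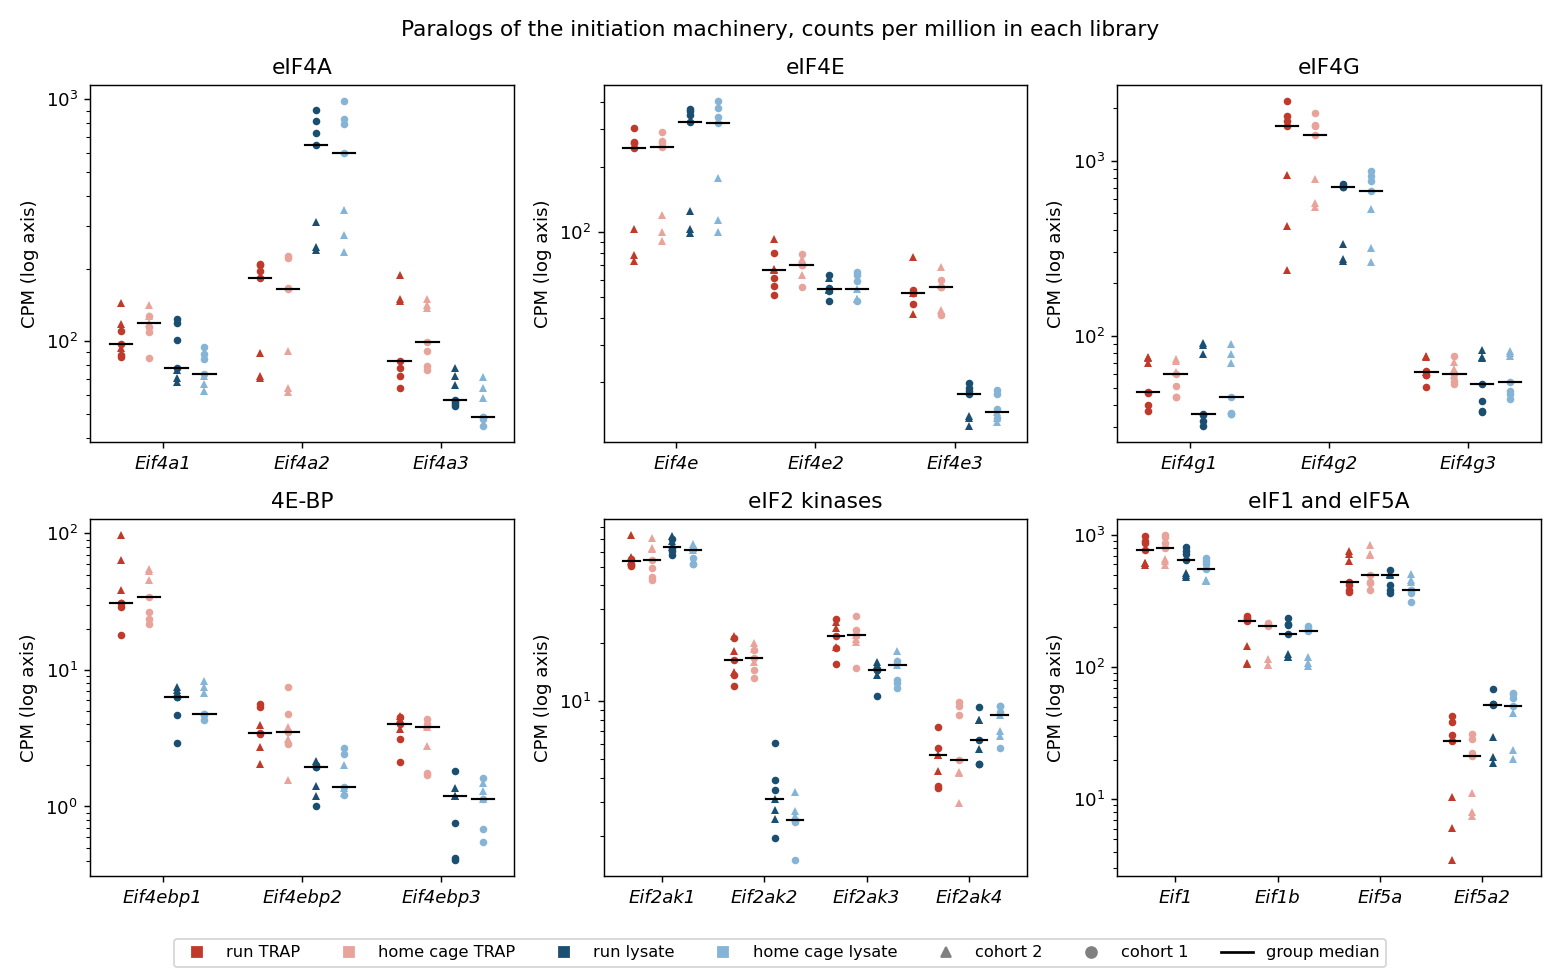
CPM on log axes in every library for paralogs of eIF4A, eIF4E, eIF4G, the 4E-binding proteins, the eIF2 kinases, eIF1 and eIF5A, with run TRAP, home cage TRAP, run lysate and home cage lysate from left to right, triangles for cohort 2, circles for cohort 1 and bars for group medians. The drop of Eif4a2 and the rise of Eif4ebp1, Eif2ak2 and Eif4e3 in TRAP are larger than the distance between run and home cage mice.

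Eif5a, which carries hypusine and helps ribosomes through difficult stretches, was higher in TRAP at 369, 471 and 840 CPM, against 314, 432 and 542 CPM in lysate, a log2 ratio of 0.31 ± 0.08, adjusted p = 8.88e-04. In cohort 1 alone it was not called (0.10, adjusted p = 0.344). Its paralog Eif5a2 went the other way, at 3.49, 21.8 and 43.1 CPM in TRAP, against 18.7, 51.4 and 68.7 CPM in lysate. All 14 mice were lower in TRAP, with a log2 ratio of -1.28 ± 0.17, adjusted p = 4.49e-08, although the ranges overlap. Eif6, which keeps the large subunit from joining too early, was at 0.47 ± 0.10, adjusted p = 1.18e-04.

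Other genes of the translation machinery were taken from 4 lists. Over all genes tested, 34.0% were higher in TRAP and 40.1% lower, with a median log2 ratio of -0.20. Of 12 elongation and termination factors, 8 were higher in TRAP and 3 lower, with a median log2 ratio of 1.00. Eef2k, the kinase that slows elongation, was highest at 2.76, and Eef1a1, the common elongation factor, was at 2.37, while Eef1a2, its neuronal and muscle form, was at -0.18 and not called. Of 22 other initiation and poly(A)-binding genes, 10 were higher and 6 lower, with a median of 0.15. Pabpc1, the poly(A)-binding protein, was at 3.77 and Mknk1, an eIF4E kinase, at 2.78. Cyfip1, a protein that represses eIF4E together with FMRP, was at 2.55, and its paralog Cyfip2 was at -1.62. Of 19 tested genes of mTORC1 and its regulators, 4 were higher and 12 lower, with a median of -0.44. The kinase itself, Mtor, was at -1.41, its partner Mlst8 at -1.496, and the scaffold Rptor at 1.51. Of 10 genes that dephosphorylate eIF2 or respond to it, 4 were higher and 5 lower.

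The 2 cohorts differed in the level of many factors within each fraction. In 15 factors all cohort 2 libraries lay below all cohort 1 libraries in both fractions, where 12.3% of all genes did so, and in 10 factors they lay above, where 15.6% did so. These levels went with base composition: across the 50 factors, the cohort 2 over cohort 1 level had a Spearman's rho of 0.76 with the GC content of the transcript in TRAP and 0.83 in lysate, against 0.73 and 0.78 over 16078 genes of the same libraries. The 15 factors lower in cohort 2 had a GC content of 36.2% to 53.8%, and the 10 higher ones of 48.2% to 57.9%. The part of base composition in the levels was not tested. The ratio of TRAP to lysate differed between cohorts for 14 factors: it was higher in cohort 2 for 10, where 8.39% of all genes were, and lower for 4, where 11.9% of all genes were. Eif2s1 moved most, with 28.9, 33.4 and 45.2 CPM in TRAP and 34.9, 37.4 and 57.2 CPM in lysate of cohort 2, against 51.0, 66.6 and 80.2 CPM in TRAP and 135, 166 and 194 CPM in lysate of cohort 1. The fractions overlap in cohort 2 and are well apart in cohort 1. This is a difference of 1.03 ± 0.17 on the log2 scale, cohort 2 minus cohort 1, adjusted p = 1.39e-04. Next by size among those higher in cohort 2 were Eif3i (0.82, adjusted p = 6.34e-04), Eif4a1 (0.74, adjusted p = 0.0015), Eif3m (0.68, adjusted p = 6.27e-04), Eif3h (0.66, adjusted p = 0.00878) and Eif3d (0.65, adjusted p = 0.00169). In the other direction Eif5a2 was lowest at -0.82 (adjusted p = 0.0491), followed by Eif4enif1 at -0.74 (adjusted p = 0.00696). Eif4g3 had the smallest p of those lower in cohort 2, at -0.61 ± 0.14, adjusted p = 0.00278.

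The calls changed under other scaling and without 2 of the mice. Under library totals 2 factors were higher and 12 lower in cohort 2, since the median difference of all genes moved by -0.34. That scaling called 370 of all 16716 genes higher and 4118 lower. DESeq2 called 17 factors higher and 3 lower, and 1967 of all genes higher and 1907 lower. Without the 2 run mice of cohort 2 whose sex markers went against their labels, 4 were higher (Eif2s1, Eif3i, Eif3m and Eif4a1) and 2 lower (Eif4g1 and Eif4g3). Of all 16904 genes tested without them, 638 were higher and 1317 lower. That fit keeps Female1 as the only run mouse of cohort 2. Among the factors no longer called, Eif3h and Eif4enif1 were then at 0.575 and -0.72, and Eif4e3 and Eif5a2 at 0.27 and -0.48. Whether calls were lost through these mice or through fewer mice was not tested. The difference between cohorts was lower for longer transcripts: Spearman's rho was -0.51 over the 50 factors and -0.29 over 16078 genes, which is a description across genes of the same libraries. With the GC content, which went with the levels in both fractions, the rho of this difference was -0.01 over the factors and -0.05 over all genes. The 10 factors with a higher ratio in cohort 2 had longest transcripts of 1295 to 3405 bases, and the 4 with a lower ratio 3712 to 8134 bases. The 36 factors not called spanned 744 to 7995 bases, with a median of 3408. Marker levels also moved with the cohort: in TRAP the neuronal markers summed to 2853 to 3581 CPM in cohort 2, against 5703 to 9705 CPM in cohort 1, and the microglial markers to 64650 to 89690 CPM in cohort 2, against 31260 to 54120 CPM in cohort 1. In TRAP, endothelial markers summed to 483 to 677 CPM in cohort 2, against 146 to 305 CPM in cohort 1, mural markers to 114 to 230 CPM in cohort 2, against 47.5 to 107 CPM in cohort 1, and astrocyte markers to 1569 to 2063 CPM in cohort 2, against 2380 to 3172 CPM in cohort 1, with no overlap. Sums of border-associated macrophage and oligodendrocyte markers overlapped between cohorts in TRAP. Those of border-associated macrophages did not overlap in lysate, at 6.71 to 9.96 CPM in cohort 2, against 10.5 to 20.5 CPM in cohort 1. Lysate sums of microglial, astrocyte and oligodendrocyte markers overlapped. In lysate, endothelial markers summed to 77.5 to 91.2 CPM in cohort 2, against 30.6 to 62.6 CPM in cohort 1, mural markers to 59.7 to 78.5 CPM in cohort 2, against 29.1 to 40.0 CPM in cohort 1, and neuronal markers to 10430 to 14150 CPM in cohort 2, against 14830 to 18350 CPM in cohort 1. For all 11 neuronal markers the ratio was lower in cohort 2, and for 5 of the 13 microglial markers it was higher. No neuronal or microglial marker was at 0 in all libraries of a fraction. The part of length and of cell content in the factors' differences was not tested. The labels do not say what else differs between the cohorts, and the cohort and the animals in it cannot be told apart.

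**Figure D3:**
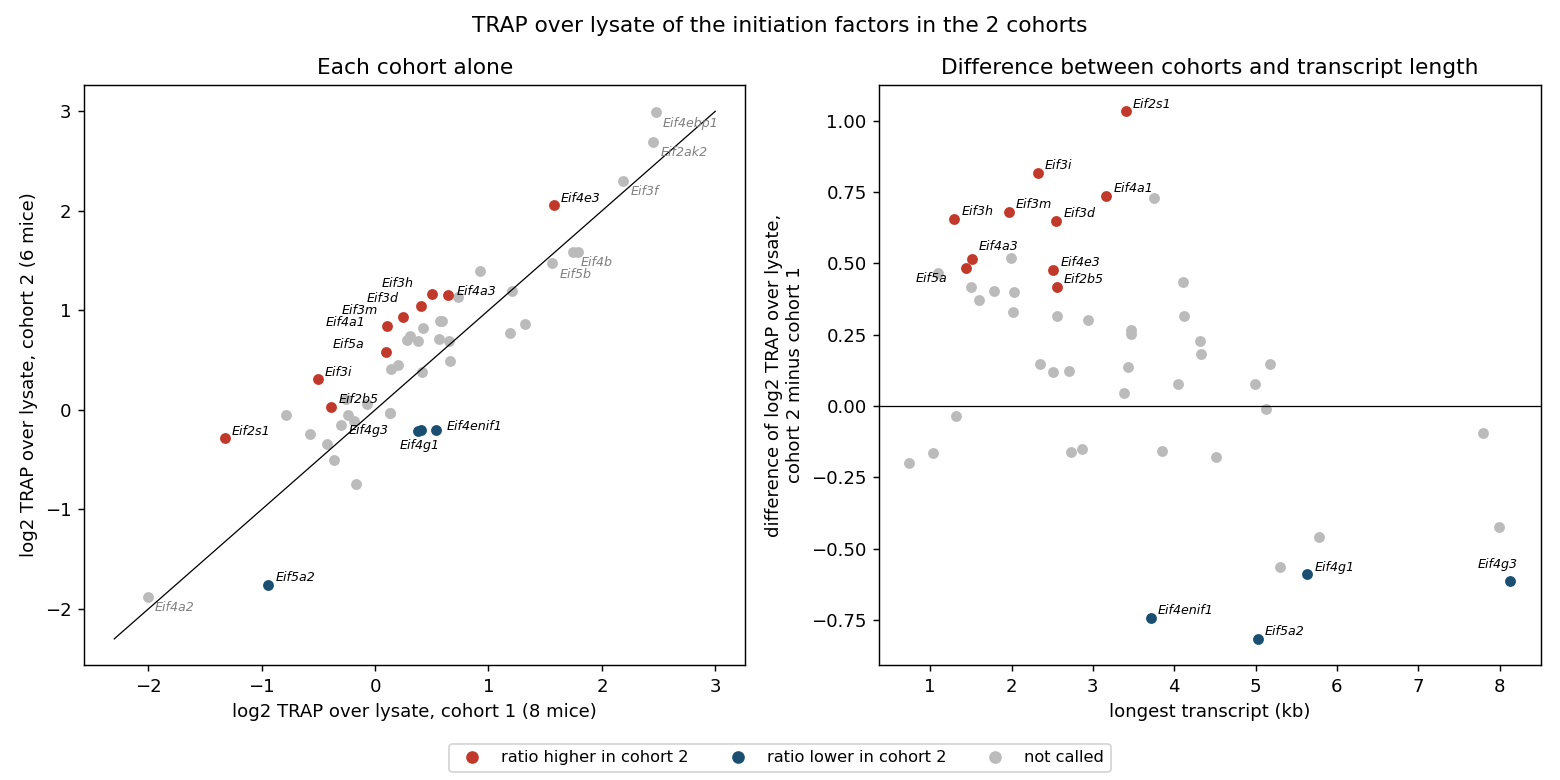
Left, log2 TRAP over lysate of each factor in cohort 2 (vertical axis, 6 mice) against cohort 1 (horizontal axis, 8 mice), with the line of equal values; right, the difference between cohorts (cohort 2 minus cohort 1, log2) against the length of the longest transcript in kb. Red and blue points are the 10 factors with a higher and the 4 with a lower ratio in cohort 2, and the blue ones sit among the longer transcripts.

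The run comparison asks whether 1 h on the rotarod changed the level of these mRNAs on microglial ribosomes or in the tissue. No factor was called in TRAP, where 0.046% of the 15203 genes tested were called, and none was called by DESeq2. The median log2 run over home cage in TRAP was -0.01 over the 50 factors and 0.00 over all genes. At an unadjusted p under 0.05 there was 1 factor, Eif2s1, where 3.55% of all genes passed. Eif2s1 was at 28.9, 51.0 and 71.5 CPM in run TRAP, against 31.6, 59.0 and 80.2 CPM in home cage TRAP, and the groups overlap. Its log2 change was -0.27 ± 0.12, with an interval from -0.52 to -0.02 and edgeR's adjusted p = 0.999. It was -0.27 in cohort 2 alone and -0.27 in cohort 1 alone. Because Eif2s1 was picked by its p with both cohorts pooled, the shared sign is no separate support. The next by p had intervals that include 0: Eif3d was at 0.21 ± 0.12, Eif1b at 0.15 ± 0.10, Eif3l at -0.16 ± 0.11, Eif1a at 0.17 ± 0.12 and Eif4a1 at -0.16 ± 0.11. Leaving out 1 mouse gave 0 to 3 factors at an unadjusted p under 0.05. The 3 came without the run mouse Female2 of cohort 2, where 3.73% of all genes passed. Leaving out both run mice with other sex markers gave 2, where 5.32% of all genes passed. All 50 intervals lay within 2-fold in either direction, and 46 lay within 1.5-fold. The wider ones were those of Eif2ak4, Eif3e, Eif4ebp2 and Eif4ebp3.

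In lysate, no factor was called either, where 0.0311% of the 16091 genes tested were called, and none was called by DESeq2. The median log2 change was 0.04 over the factors and 0.00 over all genes. At an unadjusted p under 0.05 there were 7 factors, where 7.41% of all genes passed: 5 with a higher and 2 with a lower value in run mice. Eif1 had 479, 645 and 810 CPM in run lysate, against 450, 559 and 668 CPM in home cage lysate, and the groups overlap. Its log2 change was 0.21 ± 0.07, with an interval from 0.06 to 0.35 that leaves out 0, but it did not pass over all genes (edgeR's adjusted p = 0.57). Eif4a3 was at 0.20 ± 0.07 and Eif1ad, a protein with an eIF1A domain, at 0.26 ± 0.10, both with edgeR's adjusted p = 0.607. Eif3a had 52.6, 80.2 and 109 CPM in run lysate, against 57.8, 110 and 128 CPM in home cage lysate, again with overlap, and a log2 change of -0.27 ± 0.09 (edgeR's adjusted p = 0.57). Eif4enif1 was at -0.29 ± 0.10, with an interval from -0.51 to -0.07. The other two of the 7 were Eif4a1 at 0.22 ± 0.10 and Eif5a at 0.19 ± 0.09, both with edgeR's adjusted p = 0.668. Eif4g2, next in the lower direction, was at -0.21 with an interval from -0.47 to 0.05 and was not among the 7. The changes of Eif1, Eif4a3 and Eif1ad were 0.14, 0.15 and 0.06 in cohort 2 alone, and 0.25, 0.23 and 0.40 in cohort 1 alone. Those of Eif3a (-0.21 and -0.33) and Eif4enif1 (-0.19 and -0.38) also shared their sign. These factors were picked by their p with both cohorts pooled, which favours a shared sign, so it is no separate support. Leaving out 1 mouse gave 5 to 12 factors at an unadjusted p under 0.05, the 12 without the run mouse Female2 of cohort 1, where 9.44% of all genes passed. Over all 50 factors, the sign was shared by the cohorts for 32 in lysate and for 17 in TRAP.

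**Figure D4:**
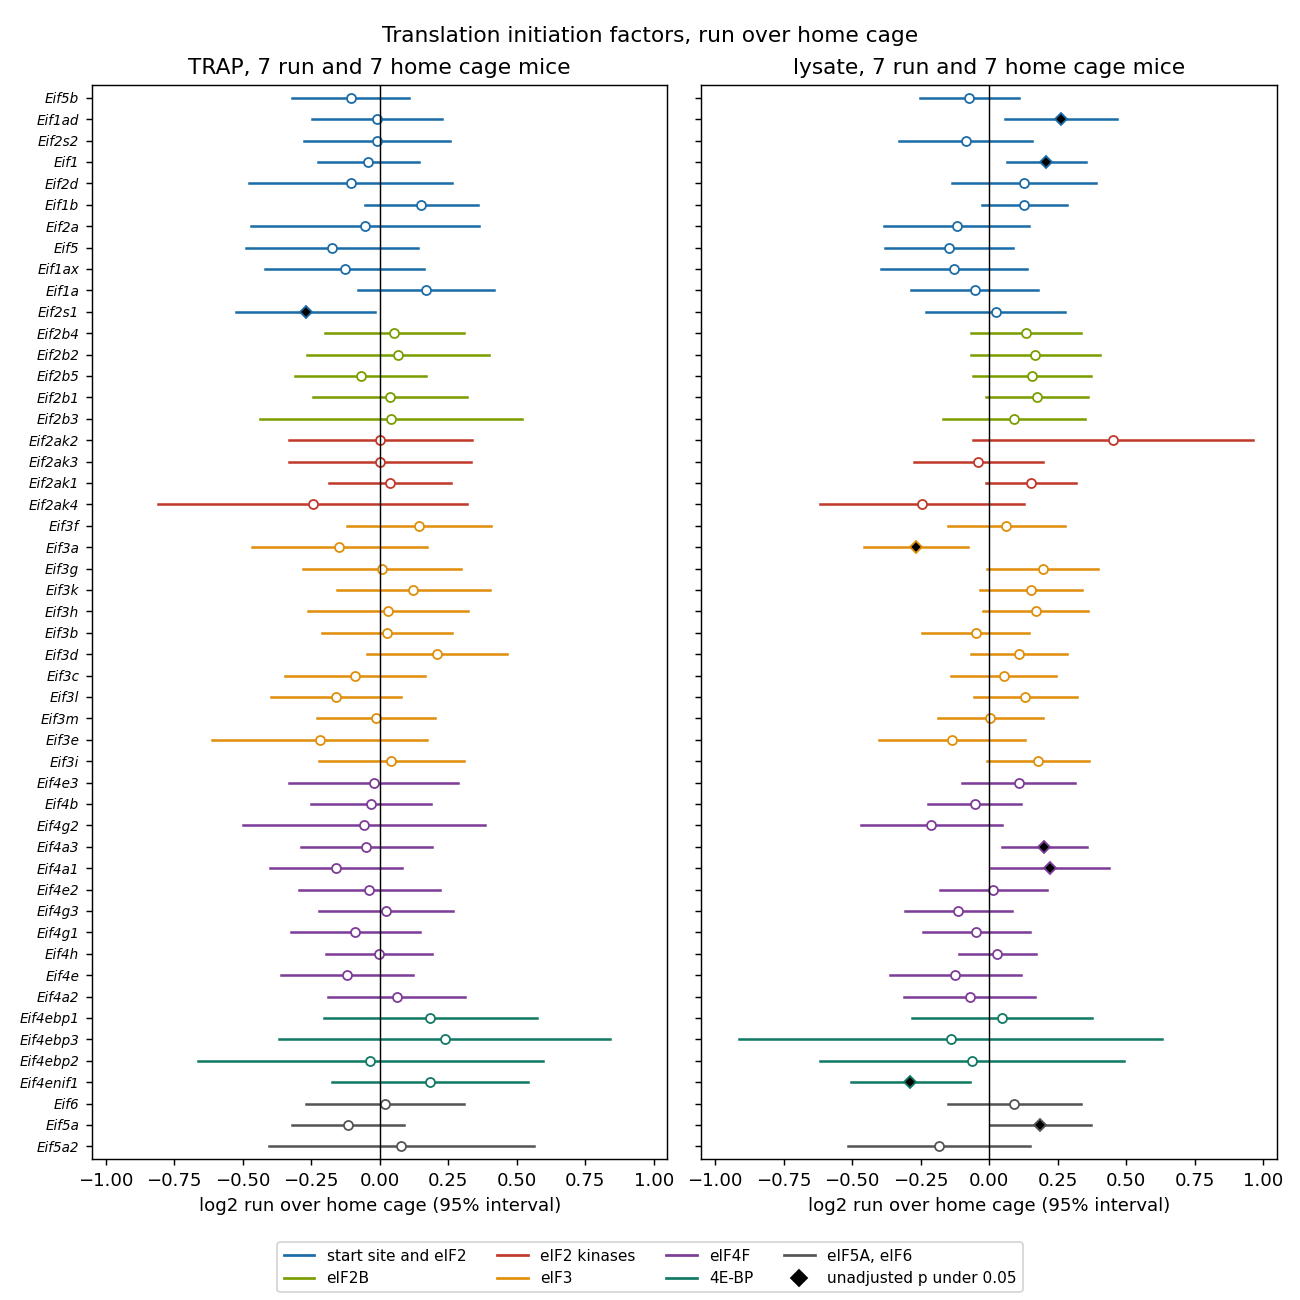
Log2 run over home cage (horizontal axes, points with 95% intervals) of the 50 factors in TRAP (left) and lysate (right), 7 run and 7 home cage mice each, with black diamonds for unadjusted p under 0.05. Most intervals include 0, and those that do not are 1 factor in TRAP and 7 in lysate.

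The test of whether the run effect differed between TRAP and lysate called no factor and no gene (0% of 16716), while 3.92% of genes and 1 factor had an unadjusted p under 0.05. DESeq2 called no factor, with 20 genes higher and 10 lower. That 1 factor became 13 without the 2 run mice whose sex markers went against their labels, where 10.8% of genes passed, and 0 to 8 when 1 mouse was left out, the 8 without the run mouse Female2 of cohort 2. Without that run mouse 5.58% of genes passed. None of these factors was called after adjustment. With all mice the factor was Eif1, with a run effect in TRAP minus that in lysate of -0.25 ± 0.11 and an interval from -0.48 to -0.02 (edgeR's adjusted p = 1), followed by Eif4enif1 at 0.47 ± 0.24. The run effect did not pass the test of a difference between cohorts for any factor, in TRAP (0% of genes called, 4.28% and 3 factors at an unadjusted p under 0.05) or in lysate (0% called, 2.04% and 0 factors). DESeq2 called no factor in these tests. In TRAP the 3 became 16 without the run mouse Female1 of cohort 2, where 14% of all genes passed, and 0 without either of the run mice Female2 and Male1 of cohort 2 or the home cage mouse Male1 of cohort 2, and 0 without both run mice with other sex markers. In lysate leaving out 1 mouse gave 0 to 3, the 3 without the run mouse Female2 of cohort 1, where 3.24% of all genes passed. The smallest p in TRAP belonged to Eif2a at -0.81 ± 0.36 and Eif3i at 0.51 ± 0.23, cohort 2 minus cohort 1, both with edgeR's adjusted p = 0.914. In lysate it belonged to Eif5 at -0.41 ± 0.21 and Eif4b at 0.30 ± 0.15, both with edgeR's adjusted p = 1.

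Several paralogs that were far apart between TRAP and lysate changed little between run and home cage mice in TRAP. In TRAP the log2 change with running was 0.06 for Eif4a2 and -0.05 for Eif4a3, and it was -0.02 for Eif4e3 and -0.12 for Eif4e. Eif4ebp1 was at 0.18 with an interval from -0.20 to 0.57, and Eif2ak2 was at 0.00 with an interval from -0.33 to 0.34. In lysate, Eif4a1, Eif4a3 and Eif5a were among the 7 factors with an unadjusted p under 0.05 given above. Eif2ak2 in lysate was at 0.83 in cohort 1 alone (edgeR's adjusted p = 0.852) and at -0.07 in cohort 2 alone. In the lists of other translation genes, no elongation, initiation or stress gene was called in either fraction. Of the mTORC1 regulators, 1 of 19 was called in TRAP. This was Ddit4, a stress-induced inhibitor of mTORC1, at 3.54-fold higher in run TRAP (log2 change 1.83 ± 0.32, edgeR's adjusted p = 0.0466). In lysate Ddit4 was at 0.71 and not called. The test of whether the run effect differed between TRAP and lysate called none of the 19. The Ddit4 call was not followed under the alternative settings.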

How the data were processed

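Per the submitters' processing notes, reads were aligned with STAR 2.7.7a to GRCm38, counted with featureCounts and compared with DESeq2, with the annotation, strand and multi-mapping settings not given in the sources used here. The authors deposited raw counts per gene symbol for 24391 symbols, and 0 sample columns were left unused. Library columns without a cohort mark were taken as cohort 1, since cohort 2 columns carry one. The factors, their roles and the other gene lists were chosen with earlier results of these data known.

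Counts were tested in R 4.3.3 with edgeR 4.0.16 (TMM scaling, filterByExpr, quasi-likelihood F test), and p-values were adjusted over all genes tested by Benjamini-Hochberg, with calls at 0.05. TRAP over lysate and its interactions used all 28 libraries with cohort as a term, and the run comparisons used the 14 libraries of 1 fraction with cohort. Levels are CPM under TMM over all 28 libraries, and exon lengths come from GENCODE basic gene models of GRCm38. SE is the log2 ratio over the square root of F, intervals are 95%, and the ratios per mouse add 0.5 CPM. Totals of 70090518 to 241381845 counts leave little counting error except for the lowest factors. The scripts were tested on simulated counts.

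Replicates are separate mice. The closest pair of libraries in a group still differed by a chi-square of 67.5 per degree of freedom, so no library was a copy. Libraries of TRAP and lysate pair by animal, per the labels. Their deviations from the group means had correlations of -0.38 to 0.29, over 0.1 in 5 of 14 mice. Run and home cage mice share only a number, with correlations of -0.17 to 0.21 in TRAP and -0.58 to 0.16 in lysate. Alternatives were RLE scaling, library totals, DESeq2 1.42.0, no filter, a replicate block, no cohort term, each cohort alone, home cage mice alone, leaving out each mouse, and leaving out the 2 run mice of cohort 2 with other sex markers.

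Genes named with full values are, in each role, the factor with the highest and the lowest TRAP over lysate ratio; for each run comparison the 3 smallest p in each direction; for each interaction the called factors, at most 6, or the 2 smallest p; and the paralogs of eIF1, eIF2 kinases, eIF4A, eIF4E, 4E-BP, eIF4G and eIF5A. Other names were chosen after their values were seen.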

Additional observations from a re-analysis of the deposited data

Results flagged for a closer look

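In 37 named factors and 4 groups of 7 libraries, 148 sets of levels were screened for a library that stands apart, and 6 were flagged; chance flags about 1 in 20. Eif4enif1 was at 91.5 CPM in the home cage TRAP library Male1 of cohort 1, where the next highest was 50.1 CPM. Eif4e3 was at 76.8 CPM in the run TRAP library Female2 of cohort 2, whose sex markers went against the label, with the next at 53.8 CPM. Eif2ak1 reached 73.1 CPM in the run TRAP library Female1 of cohort 2, with the next at 56.3 CPM. Eif3i at 111 CPM and Eif3l at 52.0 CPM were both lowest in the run lysate library Female2 of cohort 1, with the next at 145 and 67.4 CPM. Eif3l was also lowest in the home cage lysate library Male1 of cohort 1, at 51.0 CPM, with the next at 61.5 CPM.

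The log2 TRAP over lysate ratio differed between cohorts by the interaction test for 14 factors, given as cohort 2 minus cohort 1. It was higher in cohort 2 for Eif2s1 (1.03), Eif3i (0.82), Eif4a1 (0.74), Eif3m (0.68), Eif3h (0.66), Eif3d (0.65), Eif4a3 (0.51), Eif5a (0.49), Eif4e3 (0.48) and Eif2b5 (0.42). It was lower in cohort 2 for Eif5a2 (-0.82), Eif4enif1 (-0.74), Eif4g3 (-0.61) and Eif4g1 (-0.59).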

How the results depend on the processing

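The 30 higher and 11 lower factors in TRAP became 17 and 22 under library totals, where 3903 and 9488 of 16716 genes were called. In cohort 2 alone 4 were lower, where 6378 of 17109 genes were, and in home cage mice alone 7, where 5418 of 15867 were. With the replicate block (the paired mouse) 29 were higher and 9 lower. Leaving out 1 mouse gave 29 to 30 higher and 8 to 11 lower, and medians of 0.377 to 0.481. The median of 0.443 became -0.075 under library totals and 0.639 in cohort 2 alone. Under library totals 12 factors changed sign, since that scaling moves the median of all genes. Among them were Eif1 (-0.11), Eif4a1 (-0.10), Eif4e2 (-0.21), Eif5a (-0.21) and Eif6 (-0.053).

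The 14 factors whose ratio differed between cohorts became 6 without the 2 run mice with other sex markers (4 higher and 2 lower). The 10 higher and 4 lower became 2 and 12 under library totals, where 370 and 4118 of 16716 genes were called. Under DESeq2 17 were higher, where 1967 genes were. The cause of the last was not tested. Leaving out 1 mouse gave 11 to 17 in all, 8 to 13 higher and 3 to 4 lower. With the replicate block 9 were higher and 4 lower. Eif2b5 and Eif4e3 were then not called (adjusted p = 0.104 and 0.0778) and Eif2b3 was called at 0.81. The block changed no other call than these and those of Eif2ak1, Eif2b5 and Eif2d in the TRAP over lysate comparison. Leaving out 1 mouse lost the call of Eif4e3 in 11 fits, of Eif5a2 in 10 and of Eif2b5 in 12.

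No factor was called for run against home cage, in either fraction or in any interaction with running, under any alternative run. The median change was -0.07 in TRAP under library totals, and leaving out 1 library gave -0.035 to 0.008 in TRAP and 0.015 to 0.065 in lysate. Eif4ebp2, Eif4ebp3, Eif2ak4 and, in lysate, Eif2ak2 were among the lowest tested factors in CPM and among those with the widest intervals. The part of the level in the width of the intervals was not tested. Calls of Eif1ax, Eif2ak1, Eif2ak4, Eif2b5 and Eif2d each failed in some fit that left out 1 mouse, Eif2d in 9.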
